A study of Mus musculus with 18 samples.

Results

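Red blood cell genes were followed through the mandible of mouse embryos, 9 in all: the adult alpha globins Hba-a1 and Hba-a2, the adult beta globins Hbb-bs and Hbb-bt, the embryonic beta-like globins Hbb-bh1 and Hbb-y, the erythroid genes Alas2 and Slc4a1, and Ahsp. They were chosen by gene symbol, and 8 of the 9 had a row among the 38243 genes counted. Ahsp was not analysed here. The 18 libraries came from 6 female C57BL/6 embryos at E16.5. Of these, 3 were heterozygous for the S252W mutation of the fibroblast growth factor receptor 2 (Fgfr2+/S252W), and 3 were littermates without it (Fgfr2+/+). S252W is among the mutations that the paper links to Apert syndrome. The labels name no treatment, and the study's methods give C57BL6/J as the background of the mutant line. Mandibular bone, Meckel's cartilage (MC) and mandibular condylar cartilage were each cut from cryosections by laser capture microdissection, so that each of the 6 groups of genotype and tissue held 3 libraries. The mutation was carried in the whole embryo, and a captured area can hold blood vessels and other cells beside those the tissue is named for.

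Hemoglobin is a tetramer of alpha-like and beta-like globin chains around heme. The first red cells of the mouse embryo come from the yolk sac and use the embryonic globins Hbb-y, Hbb-bh1 and Hba-x (zeta globin). Red cells made later in the fetal liver use the adult genes, and as they mature their RNA is used up, with globin RNA the last to remain. Alas2 is the erythroid enzyme for the first step of heme synthesis. Slc4a1 is band 3, the anion exchanger of the red cell membrane.

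The globin genes lie in 2 clusters. On mm10, Hba-a1 (ENSMUSG00000069919) lies on chromosome 11 from 32283511 to 32284465 and Hba-a2 (ENSMUSG00000069917) from 32296489 to 32297298. Hbb-bt (ENSMUSG00000073940) lies on chromosome 7 from 103812524 to 103813996 and is followed by Hbb-bs (ENSMUSG00000052305) from 103826534 to 103828096. Hbb-bh1 (ENSMUSG00000052217) lies from 103841636 to 103843164 and Hbb-y (ENSMUSG00000052187) from 103851745 to 103853240 on the same chromosome. Alas2 (ENSMUSG00000025270) lies on chromosome X from 150547375 to 150570638, and Slc4a1 (ENSMUSG00000006574) on chromosome 11 from 102348824 to 102365280.

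How well a globin fragment can be assigned depends on sequence, since fragments that fit several places equally well were not counted. In the GENCODE M21 transcripts on GRCm38, the coding sequences of Hbb-bs and Hbb-bt are each 444 bases long and differ at 1 base. Those of Hba-a1 and Hba-a2 are 429 bases long and also differ at 1 base. The stretch around that base is shown for each pair, from coding base 351 to 411 in the alpha genes and from 387 to 444 in the beta genes, with the differing base in capitals.
Hba-a1: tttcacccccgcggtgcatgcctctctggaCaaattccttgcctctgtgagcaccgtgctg
Hba-a2: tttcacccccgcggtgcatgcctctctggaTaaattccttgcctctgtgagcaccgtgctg
Hbb-bs: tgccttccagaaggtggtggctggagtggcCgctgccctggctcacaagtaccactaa
Hbb-bt: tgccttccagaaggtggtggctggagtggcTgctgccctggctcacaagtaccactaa

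The embryonic genes are far easier to tell apart from the adult ones. The first 90 coding bases of the beta-like genes show this, with the bases that differ from Hbb-bs in capitals. Hbb-bt has none in this stretch, Hbb-bh1 has 29 and Hbb-y has 26.
Hbb-bs: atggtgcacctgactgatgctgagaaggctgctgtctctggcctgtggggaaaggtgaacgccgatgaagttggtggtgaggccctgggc
Hbb-bh1: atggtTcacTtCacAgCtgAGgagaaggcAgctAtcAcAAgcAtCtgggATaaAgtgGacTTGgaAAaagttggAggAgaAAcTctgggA
Hbb-y: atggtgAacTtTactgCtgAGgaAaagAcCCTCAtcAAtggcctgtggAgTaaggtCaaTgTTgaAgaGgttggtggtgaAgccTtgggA

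Over the whole coding sequence, Hbb-y was 74.3% and Hbb-bh1 74.1% identical to Hbb-bs. Windows of 100 bases, the read length, were compared between the transcripts of the 7 alpha-like and beta-like genes. Of the windows of Hbb-bs, 62.6% also occurred in another globin transcript, against 54.8% for Hbb-bt, 56.5% for Hba-a1, 74.5% for Hba-a2 and 0 of 534 for Hbb-y. The counts of the 4 adult genes thus rest on the parts of each gene that its partner lacks, and their levels against each other are uncertain. The difference between genotypes or tissues within 1 gene is not touched by this, as long as the share of unassigned fragments is the same.

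The libraries held between 8218548 and 15585778 counted fragments, which limits a value near 0. Normalized counts are given as TMM-normalized CPM. Each tissue was checked against markers. The summed level of 12 osteoblast markers was between 28991 and 62881 normalized counts in bone, against 2877 to 6346 in MC and 7613 to 27770 in the condylar cartilage, whose highest library came close to the lowest of bone. Of the 10 osteoblast markers kept, 10 passed as higher in bone than in MC, where 24.9% of all genes did (limma). As higher in bone than in the condylar cartilage, 6 passed, where 21.9% of all genes did (limma). The sum of 12 chondrocyte markers was between 38152 and 45884 in the condylar cartilage. In MC it was between 2905 and 10814 in 5 libraries, above the range of bone (1410 to 2429), and 1038 in Fgfr2+/+ replicate 1. Of the 10 chondrocyte markers kept, 8 passed as higher and 1, Col11a1, as lower in MC than in bone (limma). The share of all genes that were higher in MC was not counted, so the 8 have no background beside them. Within MC, Fgfr2+/+ replicate 1 had the lowest chondrocyte sum (1038) and the highest osteoblast sum (6346). The repetitive transcript Gm42418 took 24.1% to 39.4% of the fragments in MC and 5.58% to 20.2% elsewhere. Fgfr2 itself had a log2 difference between the genotypes of -0.02 (SE 0.226, adjusted p = 0.995, limma) in bone, and its counts do not tell the mutant allele from the normal one.

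In mandibular bone, the adult globins were lower in all 3 Fgfr2+/S252W than in all 3 Fgfr2+/+ embryos, with log2 differences from -1.34 to -1.62. Hbb-bs, the most abundant of them, had 360, 189 and 345 normalized counts in the 3 Fgfr2+/S252W bone libraries and 791, 954 and 810 in the 3 Fgfr2+/+ bone libraries. Every mutant library was below every control library, and the mutant with the lowest value, replicate 2, was lowest for the other 3 adult globins too. The means were 298 ± 94.9 and 851 ± 89.5 (SD, n = 3), a log2 difference of -1.57 (SE 0.483, adjusted p = 0.327) in limma fitted to all 18 libraries. With limma fitted to the 6 bone libraries alone, the same difference of -1.57 had an SE of 0.217 and an adjusted p of 0.00917. In bulk tissue, fewer red cells and less globin RNA per red cell cannot be told apart.

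Hbb-bt, the second adult beta gene, had 105, 61.6 and 96.7 normalized counts in mutant bone and 231, 315 and 249 in control bone. The groups did not overlap, and the log2 difference was -1.62 (SE 0.377, adjusted p = 0.114, limma) with 18 libraries and -1.63 (SE 0.194, adjusted p = 0.00311, limma) with the 6 bone libraries. For Hba-a1, the mutant libraries had 102, 45.7 and 96.4 and the control libraries 186, 184 and 207 normalized counts. The control libraries lay close together, the mutant libraries were more spread, and the groups did not overlap. The log2 difference of Hba-a1 was -1.34 (SE 0.545, adjusted p = 0.537, limma) with 18 libraries and -1.34 (SE 0.243, adjusted p = 0.0249, limma) with 6. Hba-a2 had 5.94, 4.34 and 5.78 against 14.1, 16.9 and 17.6 normalized counts, and again no mutant library reached a control library. Its log2 difference was -1.61 (SE 0.407, adjusted p = 0.164, limma) with 18 libraries and -1.62 (SE 0.189, adjusted p = 0.00288, limma) with 6.

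For both erythroid genes that are not globins, each mutant bone library was below each control library, and Slc4a1 passed in the fit of 6 while Alas2 passed in neither fit. Alas2 had 22.1, 12.5 and 24.9 normalized counts in mutant and 28.5, 32.6 and 41.7 in control bone. The highest mutant and the lowest control library were close, and the log2 difference was -0.85 (SE 0.267, adjusted p = 0.333, limma) with 18 libraries and -0.85 (SE 0.230, adjusted p = 0.108, limma) with 6. Slc4a1, which was too low in cartilage to be kept in the fit of 18 libraries, had 17.0, 8.42 and 13.2 normalized counts in mutant bone and 24.3, 21.6 and 29.6 in control bone. These did not overlap, with a log2 difference of -1.04 (SE 0.226, adjusted p = 0.0491, limma) in the fit of 6.

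**Figure D1:**
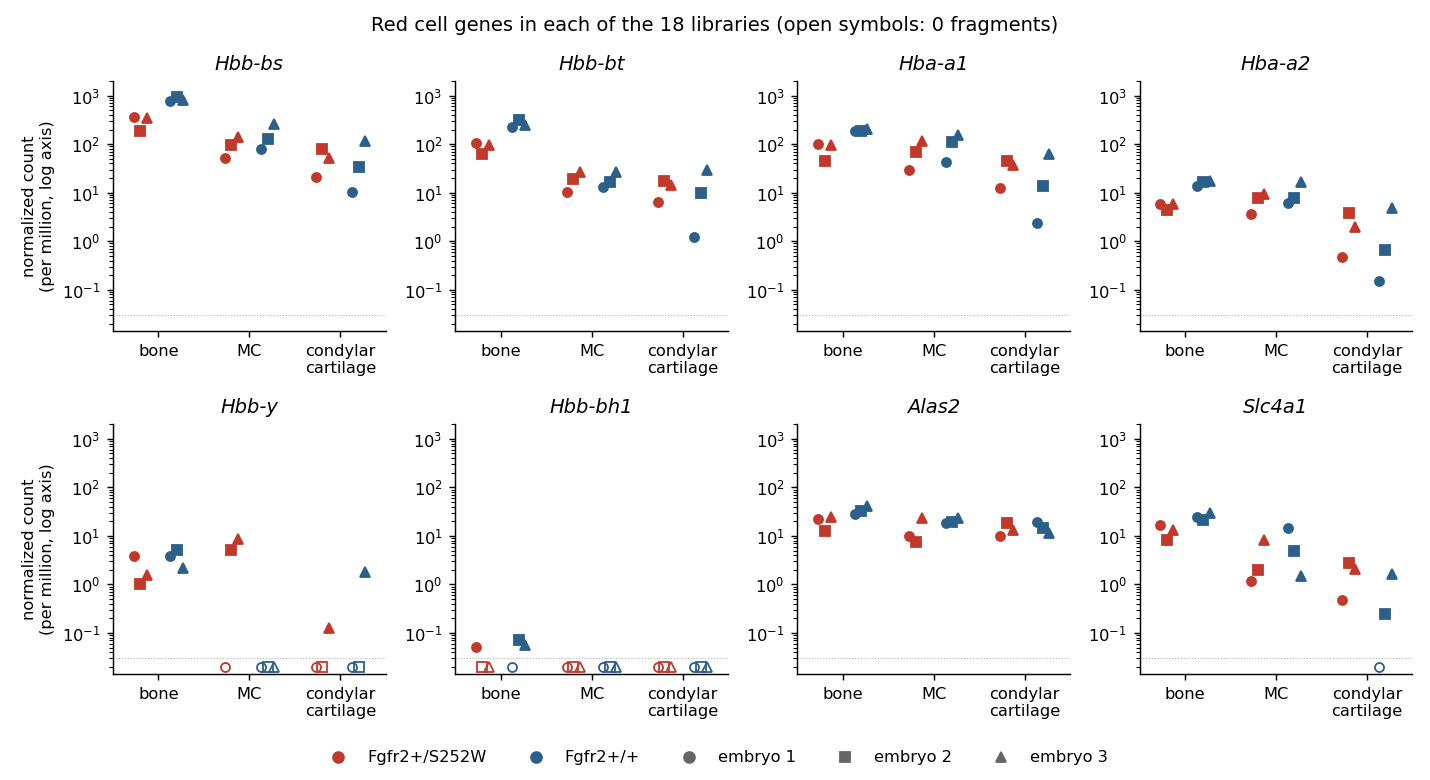
Normalized counts (CPM, log axis) of 8 red cell genes in the 18 libraries, by tissue and genotype, with 1 symbol per library and open symbols at the foot for libraries with 0 fragments. In bone, the 3 Fgfr2+/S252W values of each adult globin, Alas2 and Slc4a1 sit below the 3 Fgfr2+/+ values, while in both cartilages the genotypes overlap.

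The embryonic globins were at low levels, Hbb-y and Hba-x passed in neither fit, and Hbb-bh1 was kept in neither. Hbb-y had 3.84, 1.02 and 1.55 normalized counts in mutant and 3.81, 5.06 and 2.20 in control bone. The highest mutant library lay among the controls, and the log2 difference was -0.92 (SE 0.799, adjusted p = 0.854, limma; 95% interval -2.58 to 0.75), an interval that holds both no difference and the size seen for the adult genes. Hbb-bh1 had 3 fragments in the whole series, 1 each in Fgfr2+/S252W bone replicate 1 and Fgfr2+/+ bone replicates 2 and 3, so no difference was detectable at this depth. The embryonic alpha-like gene Hba-x had 119, 34 and 65 fragments in mutant and 62, 86 and 73 in control bone, with a log2 difference of -0.60 (SE 0.716, adjusted p = 0.918, limma).

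In the fit of 18 libraries, 0 of the 6 red cell genes kept passed the threshold of an adjusted p below 0.05 in bone, where 0.0872% of all 11469 genes did (limma). Before adjustment, 5 of 6 had a p below 0.05, all lower, against 8.13% of all genes, and edgeR and DESeq2 on the same libraries also gave 0 at the adjusted threshold, with 4 and 3 genes at an unadjusted p below 0.05. The same 5 genes had all mutant libraries below all control libraries, which held for 9.7% of the kept genes. With bone alone, limma called 5 of the 7 genes kept, all lower (Hbb-bs, Hbb-bt, Hba-a1, Hba-a2 and Slc4a1), against 1.14% of 12322 genes in either direction and 0.536% lower. The median log2 difference was -1.34 over these 7 genes and -0.00 over all genes. The number past the threshold thus differed between these fits, which also differ in the genes kept and in normalization, while the log2 differences hardly moved. Fits of all 18 libraries called 5 with sample quality weights and 2 with no filter on low genes. Leaving out 1 bone library of the 6 left between 2 and 5 genes past the threshold, with the fewest without Fgfr2+/+ replicate 1. Hba-a2 and Hbb-bt passed in each of these 6 fits, and Hbb-bs in all but the fit without Fgfr2+/+ replicate 1. Hba-a1 passed only without Fgfr2+/S252W replicate 3 or without Fgfr2+/+ replicate 3.

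In MC the genotypes overlapped for all of the genes. Hbb-bs had 52.2, 96.1 and 140 normalized counts in mutant and 80.3, 126 and 257 in control MC, a log2 difference of -0.61 (SE 0.598, adjusted p = 0.663, limma; 95% interval -1.86 to 0.64). Hba-a1 had 29.9, 69.6 and 117 against 43.6, 111 and 151 normalized counts, with a log2 difference of -0.49 (SE 0.676, adjusted p = 0.769, limma) that lay between -1.08 without Fgfr2+/+ replicate 1 and 0.11 without Fgfr2+/S252W replicate 1. Alas2 had 10.02, 7.43 and 23.3 against 18.1, 19.3 and 23.2 normalized counts, and a log2 difference of -0.69 (SE 0.414, adjusted p = 0.432, limma). The spread within each genotype was as large as the distance between them. Hbb-bt, with 10.4, 18.9 and 26.6 against 13.1, 16.5 and 26.8 normalized counts, gave a log2 difference of -0.03, and Hba-a2, with 3.61, 7.66 and 9.63 against 6.04, 7.65 and 16.5, gave -0.47. Slc4a1 was highest in Fgfr2+/+ replicate 1, at 14.4 normalized counts, against 1.4998 and 4.78 in the other control libraries and 1.203 to 8.05 in the mutant libraries.

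Hbb-y was the one red cell gene in MC that was seen in mutant libraries alone. It had 0, 23 and 49 fragments in the 3 Fgfr2+/S252W libraries, or 0, 5.18 and 8.58 normalized counts, and 0 in all 3 Fgfr2+/+ libraries. The mutant replicate 1 thus shared the 0 of the controls. Summed over the groups, the mutant level was 29.0 times a floor of 3 fragments over the 3 control libraries. The floor covers counting error of the controls only, not that of the mutant sum or the spread between libraries. This ratio was 13.7 without Fgfr2+/S252W replicate 3, which held 49 of the 72 fragments, 14.3 without Fgfr2+/+ replicate 1 and 50.4 without Fgfr2+/S252W replicate 1, sums chosen after seeing the data. The fitted log2 difference, which depends on the prior count for a group at 0, did not pass in limma (3.99, SE 1.86, adjusted p = 0.309) and passed in DESeq2 (7.39, adjusted p = 0.0442) but not in edgeR (8.77, adjusted p = 0.0934). In the same 2 mutant libraries Hba-x had 15 and 39 fragments, but it had 29 in Fgfr2+/+ replicate 3, in which Hbb-y was at 0. None of the 6 genes kept passed in MC with limma, where 0% of all genes passed and 15.4% had an unadjusted p below 0.05. Of the 6, 1 had an unadjusted p below 0.05, and edgeR gave 0 at the adjusted threshold.

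The 3 control libraries of the condylar cartilage lay far apart for the adult globins. Hbb-bs had 21.2, 78.5 and 51.4 normalized counts in mutant and 10.2, 34.5 and 114 in control libraries. The controls spanned the mutants from below and above, and the log2 difference of 0.36 (SE 0.643, adjusted p = 0.998, limma; 95% interval -0.98 to 1.70) was negative in edgeR and DESeq2 (-0.07 and -0.06). Hba-a1 had 12.3, 44.1 and 36.9 against 2.40, 13.7 and 62.3 normalized counts, with a log2 difference of 1.10 (SE 0.821, adjusted p = 0.998, limma) that turned to -0.16 without Fgfr2+/+ replicate 1. Alas2 varied less, with 10.2, 18.8 and 13.5 against 19.2, 14.6 and 11.5 normalized counts and a log2 difference of -0.14 (SE 0.344, adjusted p = 0.998, limma). Hbb-bt had 6.49, 17.6 and 14.8 against 1.202, 9.64 and 29.2 normalized counts, with a log2 difference of 0.79 (SE 0.712, adjusted p = 0.998, limma) that was -0.04 in edgeR and DESeq2 and -0.55 without Fgfr2+/+ replicate 1. Hba-a2 stayed below 5 normalized counts in each of these libraries, and its log2 difference was 0.81 (SE 0.948, adjusted p = 0.998, limma), or -0.33 without Fgfr2+/+ replicate 1. Hbb-y had 1 fragment in Fgfr2+/S252W replicate 3 and 20 in Fgfr2+/+ replicate 3, and 0 in the other 4 libraries. None of the 6 genes passed with limma, edgeR or DESeq2, as for 0% of all genes with limma, and 3.06% of all genes but 0 of the 6 had an unadjusted p below 0.05.

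**Figure D2:**
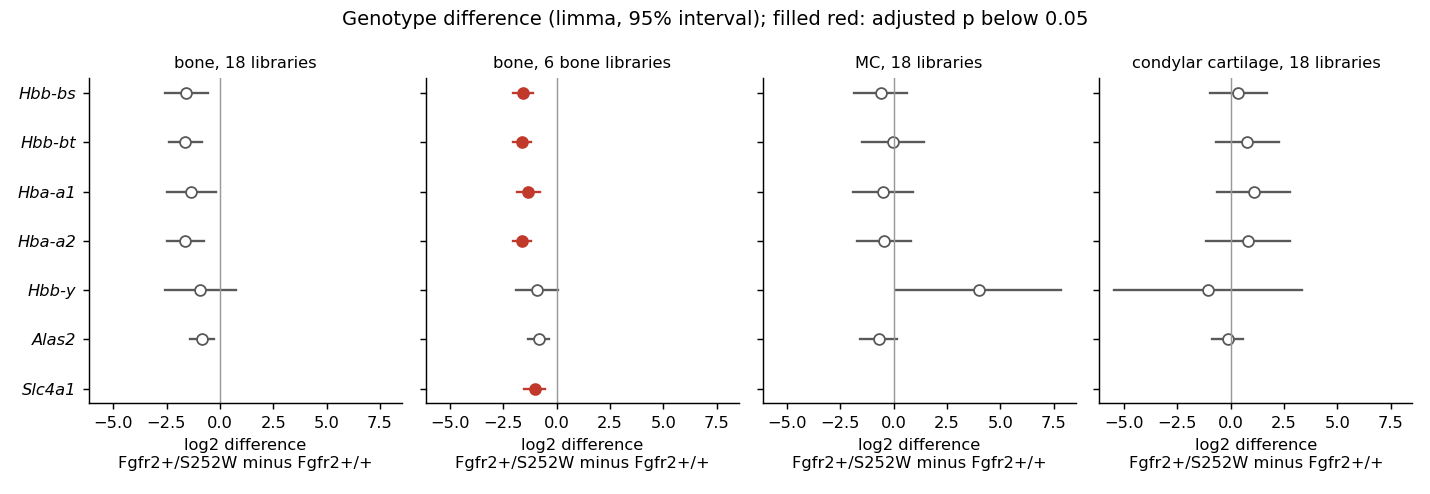
Log2 difference between Fgfr2+/S252W and Fgfr2+/+ with its 95% interval from limma for each red cell gene tested, in bone with 18 and with 6 libraries, in MC and in the condylar cartilage, with filled red points where the adjusted p was below 0.05. The points for bone lie left of 0 in both fits with shorter intervals in the second, and the intervals for Hbb-y in the cartilages are several times wider than the others.

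Whether the genotype difference itself differed between tissues was tested as an interaction. Between bone and the condylar cartilage, the log2 difference in bone minus that in the cartilage was -1.82 for Hbb-bs (SE 0.693), -1.93 for Hbb-bt (SE 0.825), -2.01 for Hba-a1 (SE 0.805) and -2.15 for Hba-a2 (SE 0.928). These 4 had an unadjusted p below 0.05, from 0.0177 to 0.0336, as had 1.94% of all genes, and 0 of the 6 genes and 0% of all genes passed after adjustment in limma. Between bone and MC, the interaction was -0.96 (SE 0.647, adjusted p = 0.659, limma) for Hbb-bs and -1.56 (SE 0.721, adjusted p = 0.538, limma) for Hbb-bt, and 0 of 6 genes passed against 0.0349% of all genes. A genotype difference that is particular to bone was thus not shown. The 2 unadjusted p-values below 0.05 in that contrast were those of Hbb-bt and Hbb-y, where 9.12% of all genes had one. Between the cartilages, 0 of 6 passed as for 0% of all genes, and Hbb-y was the 1 with an unadjusted p below 0.05 (7.88% of all genes). edgeR and DESeq2 also gave 0 genes past the threshold in each interaction, with 1, 4 and 1 at an unadjusted p below 0.05 in bone against MC, bone against the condylar cartilage and the cartilages.

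Between tissues, both adult beta globins differed between bone and MC. All 6 genes kept differed between bone and the condylar cartilage, with limits for Hbb-y that are given below. Comparing the libraries of 1 embryo with each other, Hbb-bs was higher in bone than in MC in 6 of 6 embryos, by between 0.97 and 3.29 on the log2 scale, and higher in bone than in the condylar cartilage in 6 of 6, by between 1.26 and 6.21. Averaged over the genotypes, with the embryo as a term, the log2 difference was 2.15 (SE 0.315, adjusted p = 3.14e-05, limma) against MC and 3.59 (SE 0.340, adjusted p = 2.12e-07, limma) against the condylar cartilage. Hbb-bt had the larger difference against MC, at 3.05 (SE 0.3499, adjusted p = 2.5e-06, limma), and 3.78 (SE 0.414, adjusted p = 1.14e-06, limma) against the condylar cartilage. The alpha genes behaved differently between bone and MC. Hba-a1 was higher in bone in 4 of 6 embryos, with a log2 difference of 0.64 (SE 0.345, adjusted p = 0.138, limma), and Hba-a2 had a difference of 0.09 (SE 0.311, adjusted p = 0.825, limma; 95% interval -0.56 to 0.75). Against the condylar cartilage both were higher in bone, Hba-a1 by 2.44 (SE 0.407, adjusted p = 0.000104, limma) and Hba-a2 by 2.58 (SE 0.465, adjusted p = 0.000223, limma).

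Of the genes kept, Alas2 differed least between the condylar cartilage and either other tissue, while both alpha globins had smaller differences between bone and MC. Its median was 26.7 normalized counts in bone (range 12.5 to 41.7), 18.7 in MC (7.43 to 23.3) and 14.0 in the condylar cartilage (10.2 to 19.2). Bone exceeded MC by 0.67 (SE 0.222, adjusted p = 0.0191, limma), a call lost without any 1 of Fgfr2+/S252W bone replicate 1, Fgfr2+/S252W MC replicates 1 and 2 and Fgfr2+/+ bone replicate 3 (log2 differences of 0.52 to 0.60), and the condylar cartilage by 0.84 (SE 0.235, adjusted p = 0.00791, limma). Slc4a1 had a median of 19.3 normalized counts in bone, 3.40 in MC and 1.05 in the condylar cartilage, and was higher in bone than in either cartilage in 6 of 6 embryos. With no filter on low genes its log2 difference was 2.30 (SE 0.498, adjusted p = 0.00162, limma) against MC and 4.78 (SE 0.781, adjusted p = 0.000143, limma) against the condylar cartilage. Hbb-y was seen in 6 of 6 bone libraries and was at 0 in 4 of the 6 libraries of each cartilage. Its fitted difference of bone over the condylar cartilage was 4.04 (SE 1.35, adjusted p = 0.0226, limma), and of the 12 fits without 1 library of these tissues, 5 kept the gene after the filter on low values. The call was lost in 3 of those 5, without Fgfr2+/S252W condylar replicate 2 or without Fgfr2+/+ condylar replicate 1 or 2 (3.38 to 3.85). Hbb-y met that filter only together with its bone libraries, where it was high. Its test of bone over the condylar cartilage was thus partly fixed by the filter.

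Of the 6 genes kept, 3 passed as higher in bone than in MC (Hbb-bs, Hbb-bt and Alas2), where 24.9% of all genes did. All 6 passed as higher in bone than in the condylar cartilage, where 21.9% of all genes did. Hbb-y was among these 6 only through its bone libraries, and the limits given above hold for it. Between the cartilages 3 were lower in the condylar cartilage than in MC, against 27.8% of all genes: Hba-a2 by -2.49 (SE 0.533, adjusted p = 0.000726, limma), Hba-a1 by -1.80 (SE 0.448, adjusted p = 0.00243, limma) and Hbb-bs by -1.44 (SE 0.361, adjusted p = 0.00268, limma). These differences are relative to the TMM factors, since library totals alone moved the median of all genes by 1.07 on the log2 scale between bone and MC and by 0.76 between the cartilages. With totals alone, all 6 genes passed as higher in bone than in MC, and between the cartilages Hbb-bs no longer passed (-0.72, adjusted p = 0.0540, limma), which left 2 genes. In each of the 4 cartilage groups, replicate 1 had the lowest level of all 4 adult globins, and the numbers of the 2 genotypes stand for different embryos. What the number shares between the genotypes is not given in the sources used here. Endothelial markers followed the same order of tissues as Hbb-bs, with a summed level of 260 to 344 normalized counts in bone, 35.6 to 134 in MC and 9.31 to 33.7 in the condylar cartilage. Macrophage markers did so too, at 170 to 284, 40.6 to 158 and 5.96 to 17.1. Over control MC replicates 1 to 3 the endothelial sum fell (103, 58.0 and 35.6) while Hbb-bs rose (80.3, 126 and 257). In mutant MC both were lowest in replicate 1. Of the 6 endothelial markers kept, 5 passed as higher in bone than in MC and 6 as higher in bone than in the condylar cartilage (limma). The part of either set in the globin differences was not tested.

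**Figure D3:**
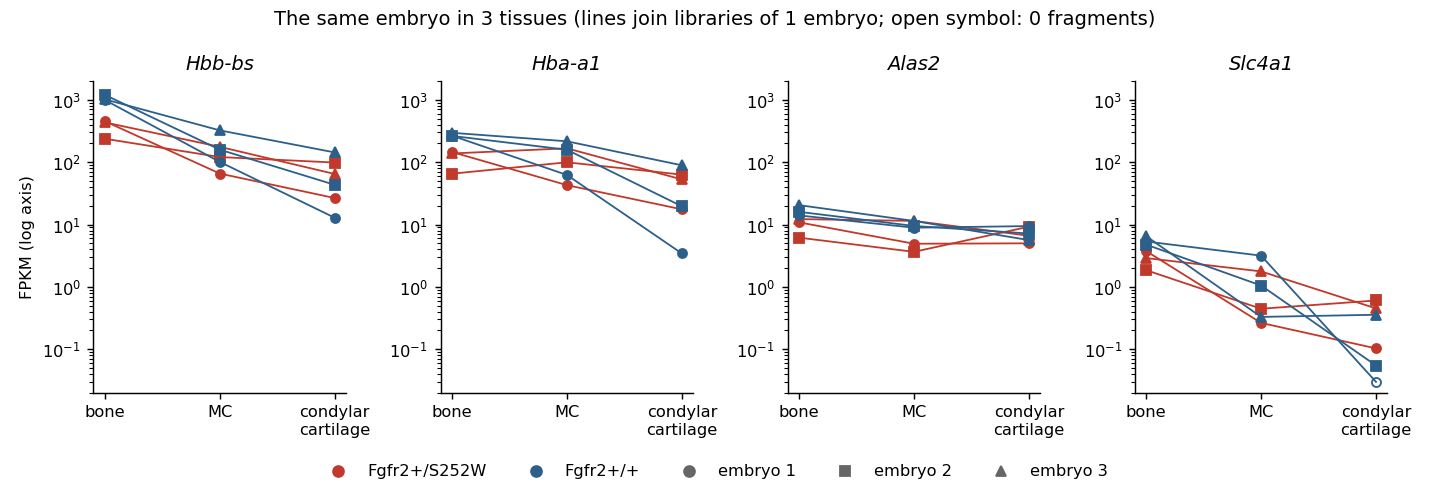
FPKM (log axis) of Hbb-bs, Hba-a1, Alas2 and Slc4a1 in bone, MC and condylar cartilage, with a line for each of the 6 embryos and an open symbol at the foot for 0 fragments. Hbb-bs falls from bone to MC in every embryo, Hba-a1 falls in 4 of 6, and the lines of Alas2 stay within 3.65 and 20.5 FPKM.

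Levels of different genes were compared per length, as FPKM, which divides the fragments by the exon length of the gene and the size of the library. In bone the order of the medians over 6 libraries was Hbb-bs at 723 FPKM, Hbb-bt at 239, Hba-a1 at 205, Hba-a2 at 18.04, Alas2 at 13.1, Hbb-y at 4.55, Slc4a1 at 4.26 and Hbb-bh1 at 0.042. FPKM does not correct for fragments left unassigned. Of the windows of Hba-a2, 25.5% were not shared, against 37.4% for Hbb-bs, 43.5% for Hba-a1 and 45.2% for Hbb-bt. The order among these adult genes is thus uncertain. Hbb-bt and Hba-a1 overlapped over the 6 libraries (87.6 to 448 against 65.3 to 296 FPKM), as did Hba-a2 and Alas2 (7.84 to 31.7 against 6.16 to 20.5) and Hbb-y and Slc4a1 (1.54 to 7.66 against 1.85 to 6.51). In MC, Hbb-bs at a median of 140 FPKM and Hba-a1 at 129 were nearly level, with ranges of 65.6 to 323 and 42.8 to 216. Their medians in the condylar cartilage were 54.0 and 36.2 FPKM.

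Together the 6 globin genes took 0.0830%, 0.0437% and 0.0795% of all counted fragments in Fgfr2+/S252W bone and 0.145%, 0.183% and 0.180% in Fgfr2+/+ bone. The widest 95% Wilson interval among them, that of Fgfr2+/+ replicate 2, ran from 0.181% to 0.186%, so that counting error is small beside the distance between the genotypes. Such intervals cover counting error only, since amplified reads are not independent molecules. In the cartilages the share was between 0.00175% and 0.0228%. It was lower than in bone of the same embryo in 6 of 6 embryos for either cartilage.

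The balance of alpha and beta globin shifted with the tissue. The summed FPKM of Hba-a1 and Hba-a2 per summed FPKM of Hbb-bs and Hbb-bt was 0.259, 0.225 and 0.260 in mutant and 0.220, 0.179 and 0.239 in control bone. In MC it was 0.613, 0.768 and 0.861 in mutant and 0.613, 0.945 and 0.680 in control libraries. The condylar cartilage overlapped with both, at 0.513, 0.565 and 0.658 in mutant and 0.255, 0.365 and 0.528 in control libraries. Within an embryo the ratio was lower in bone than in MC in 6 of 6, with a median log2 difference of -1.62, lower in bone than in the condylar cartilage in 6 of 6 (median -1.09), and lower in the condylar cartilage than in MC in 6 of 6 (median -0.41). Between genotypes in bone the log2 ratio differed by 0.23, with overlapping libraries. The alpha and beta genes differ in how much of their transcript can be assigned, so the ratio itself is no measure of chain balance, and a test was not made since it is built from the chosen genes.

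The share of Hbb-bt in adult beta globin also differed between bone and MC, but not in every embryo between bone and the condylar cartilage. It was 22.6%, 24.6% and 21.9% of the fragments of Hbb-bs and Hbb-bt in mutant and 22.6%, 24.8% and 23.5% in control bone, nearly the same in each library. In MC it was 16.6%, 16.4% and 15.9% in mutant and 14.0%, 11.5% and 9.43% in control libraries, below bone in 6 of 6 embryos, and the genotypes did not overlap. The largest of the control values had a 95% Wilson interval of 12.02% to 16.3%, which reaches into the mutant range. In the condylar cartilage the share was 23.5%, 18.3% and 22.3% against 10.5%, 21.8% and 20.4%, where the lowest value rests on 152 beta-like fragments and has an interval of 6.58% to 16.4%. It was below bone in 4 of 6 embryos and above bone in 2.

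The embryonic share of the beta-like fragments was below 1% in bone. Hbb-y and Hbb-bh1 together made up 0.829%, 0.405% and 0.3498% in mutant and 0.372%, 0.403% and 0.213% in control bone. The highest, of Fgfr2+/S252W replicate 1, had a 95% Wilson interval of 0.663% to 1.04%, which lies above the intervals of the other 5 bone libraries. In MC the share was 0, 4.31% (95% Wilson interval 2.89% to 6.38%) and 4.89% (3.72% to 6.41%) in mutant libraries. It was 0 in the 3 control libraries, where 1005, 746 and 1516 beta-like fragments allow a share of up to 0.299%, 0.402% and 0.198%. In the condylar cartilage it was 0, 0 and 0.193% in mutant and 0, 0 and 1.24% in control libraries. The 2 MC libraries with Hbb-y were above every bone library in this share.

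Hba-x was seen in more libraries than Hbb-y. It made up 5.36%, 2.93% and 3.29% of the fragments of Hba-a1, Hba-a2 and Hba-x in mutant and 2.03%, 3.04% and 1.81% in control bone. In MC these shares were 0, 4.19% and 5.13% in mutant and 1.48%, 0 and 3.14% in control libraries. The 2 mutant MC libraries that held Hbb-y were also those with the highest Hba-x share in MC.

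**Figure D4:**
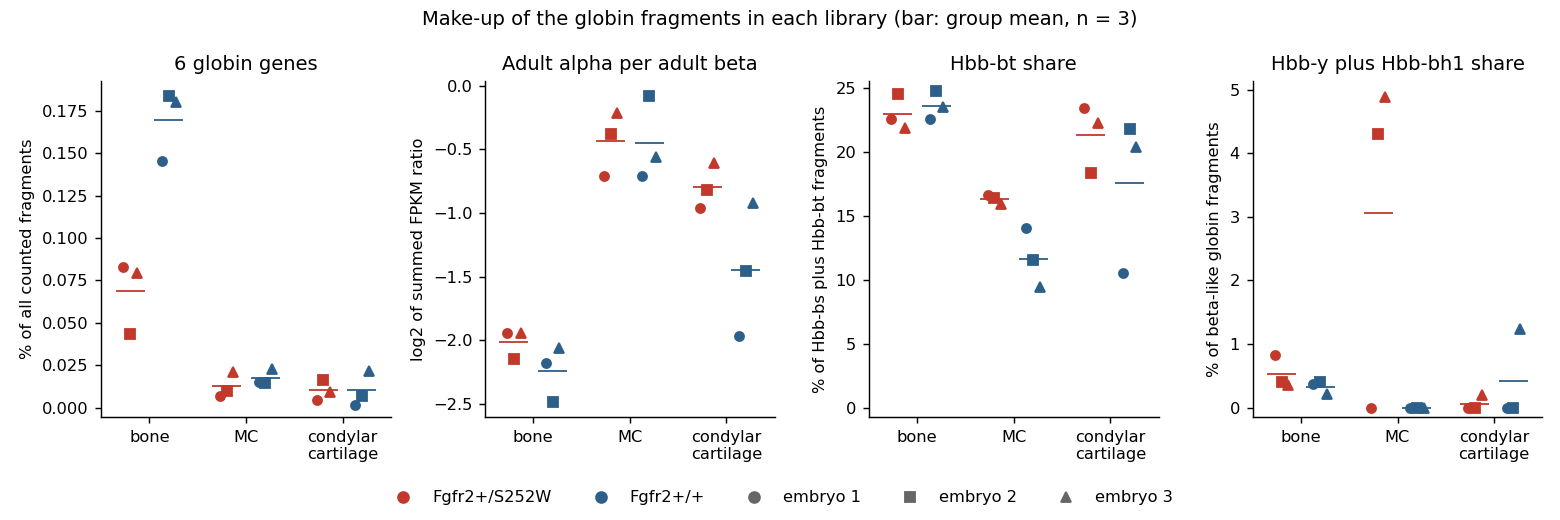
Make-up of the globin fragments in each library, with the group mean as a bar (n = 3): the share of 6 globin genes in all fragments, the log2 ratio of adult alpha to adult beta FPKM, the share of Hbb-bt in adult beta fragments and the share of Hbb-y and Hbb-bh1 in beta-like fragments. The globin share is highest in Fgfr2+/+ bone (0.145% to 0.183%), the alpha to beta ratio is lowest in bone of either genotype, and 2 Fgfr2+/S252W MC libraries have 4.31% and 4.89% of embryonic fragments.

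The erythroid genes did not keep a fixed proportion to the globins. In bone, the FPKM of Alas2 was 1.43%, 1.55% and 1.70% of the summed FPKM of the 4 adult globins in mutant and 0.868%, 0.824% and 1.205% in control libraries. The mutant libraries were above the control libraries without overlap, a difference of 0.71 on the log2 scale. In the condylar cartilage Alas2 was between 1.99% and 9.22% of the adult globins in 5 libraries and 51.7% in Fgfr2+/+ replicate 1, which held 186 globin fragments, and the proportion was higher there than in bone in 6 of 6 embryos. Slc4a1 was 0.494%, 0.465% and 0.402% of the adult globins in mutant and 0.331%, 0.245% and 0.383% in control bone. Its level per Alas2 was between 0.237 and 0.382 in bone and higher than in either cartilage of the same embryo in 6 of 6, while in Fgfr2+/+ MC replicate 1 it was 0.356, within the range of bone.

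Other genes of red cell biology were followed in bone through lists of known members. For the counts below 0.05 before adjustment, the share over all genes was 8.13% in the fit of 18 and 16.1% in the fit of 6. Of the 12 genes of heme synthesis, all were tested and 0 passed with limma in either fit, with 0 at p below 0.05 before adjustment in both. The median log2 difference was 0.04 in the fit of 6, and the 3 most abundant were Fech (-0.27), Cpox (-0.27) and Tmem14c (0.08). Fech inserts iron into the heme ring, and Cpox is an earlier enzyme of the pathway. Of the 10 genes of erythroid iron supply, 9 were tested and 0 passed in either fit, with 1 and 3 below 0.05 before adjustment. Ftl1 and Fth1, the chains of ferritin, had log2 differences of -0.39 and -0.11, and Ireb2, a sensor of iron, had -0.25. Of the 20 genes of the red cell membrane and skeleton, 6 and 7 were kept in the 2 fits and 0 passed (0 and 2 below 0.05 before adjustment). The most abundant were Slc2a1 (0.36), Cd47 (-0.01) and Epb41 (0.10), which many cells use.

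Of the 14 erythroid transcription factors, 3 and 4 were kept and 0 passed (0 and 1 below 0.05 before adjustment). The most abundant, Sox6 (0.11), Ldb1 (-0.12) and Zbtb7a (0.09), are not restricted to red cells. Of 29 genes of erythroid signaling and maturation, 15 and 17 were tested, with 0 past the threshold in the fit of 18 (4 below 0.05 before adjustment) and 3 in the fit of 6, or 1 higher and 2 lower (limma), where 1.14% of all genes passed. Tent5c (-0.68, adjusted p = 0.0453, limma) and Bpgm (-0.68, adjusted p = 0.0481, limma) fell, and Car2 rose (0.75, adjusted p = 0.0288, limma). Bpgm makes bisphosphoglycerate, which lowers the oxygen affinity of hemoglobin. Car2, carbonic anhydrase 2, is abundant in red cells and in osteoclasts. Of the 10 genes of hemoglobin and heme clearance, 7 and 8 were tested and 0 passed (1 and 5 below 0.05 before adjustment), and the most abundant were Lrp1 (0.72), Ftl1 (-0.39) and Fth1 (-0.11). In the fit of 6 the median log2 difference of these lists lay between -0.27 and 0.05, against -1.34 for the globins, Alas2 and Slc4a1. The filter on low values left out most of the membrane genes and transcription factors, so their medians do not describe the genes left out.

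Markers of other cells that bone holds moved in several directions. Of 12 endothelial markers, 6 and 12 were tested, with 0 passed in the fit of 18 and 1 in the fit of 6, Egfl7 (-0.84, adjusted p = 0.0436, limma). Their summed level was between 279 and 300 normalized counts in mutant and between 260 and 344 in control bone. Of 10 macrophage markers, 5 and 8 were tested. Lyz2 fell in the fit of 18 (-1.47, adjusted p = 0.0483, limma), and in the fit of 6 C1qb (-2.26), Adgre1 (-2.23) and Lyz2 (-1.48) fell while Csf1r (0.94) and Cd68 (0.96) rose. Their summed level was between 224 and 284 normalized counts in mutant and between 170 and 197 in control bone. Of 10 markers of the macrophages on which red cell precursors mature, which share some genes with the macrophage and iron lists, 5 and 6 were tested, and Vcam1 alone passed, in the fit of 6 (-1.03, adjusted p = 0.0311, limma).

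Of 10 platelet and megakaryocyte markers, 1 and 2 were kept and 0 passed (1 and 2 below 0.05 before adjustment), with log2 differences of -1.45 for Pf4 (adjusted p = 0.172, limma) and -2.80 for Gp9 (adjusted p = 0.0923, limma) in the fit of 6. Their sum was 3.43, 2.66 and 2.73 normalized counts in mutant and 6.62, 5.58 and 4.57 in control bone, without overlap as for the adult globins. None of the 10 neutrophil markers was kept, and their sum was between 6 and 23 fragments in 5 bone libraries and 180 in Fgfr2+/+ replicate 1. Osteoblast markers had a median log2 difference of 0.43 in the fit of 6, with 0 of 12 passed and 6 below 0.05 before adjustment. Of 12 chondrocyte markers, 10 and 4 were tested and 0 passed, with 1 and 3 below 0.05 before adjustment.

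Skeletal muscle genes had the most negative median of the lists in bone, with no gene past the threshold. Of 10, 5 and 8 were tested and 0 passed, with 5 and 8 below 0.05 before adjustment and a median log2 difference of -3.60 in the fit of 6. Their sum was 2.71, 15.8 and 57.5 normalized counts in mutant bone and 375, 390 and 55.8 in control bone. Fgfr2+/+ replicate 3 was within the range of the mutants for muscle, and its Hbb-bs of 810 normalized counts was within the range of the other controls. Mitochondrial genes took 23.6%, 23.4% and 23.4% of the fragments in mutant bone and 36.0%, 34.8% and 20.4% in control bone, where the last value is again that of replicate 3. The part of these markers in the globin result was not tested.

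**Figure D5:**
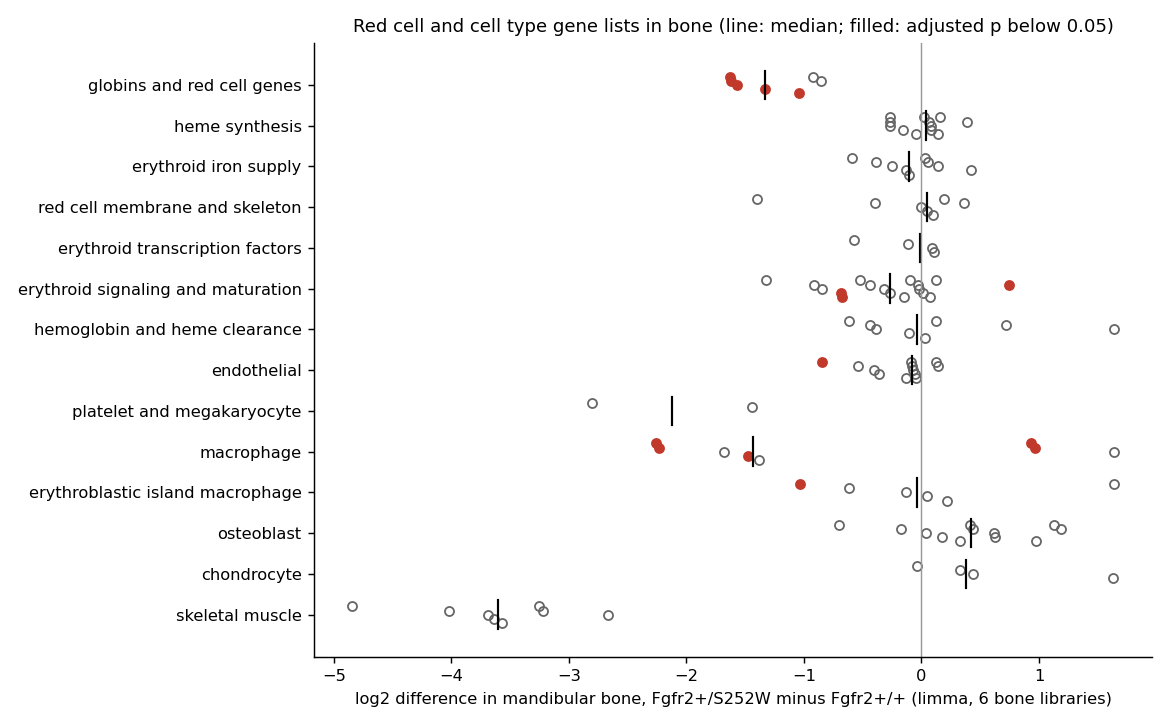
Log2 difference between Fgfr2+/S252W and Fgfr2+/+ bone (limma, 6 bone libraries) for each tested gene of the red cell and cell type lists, with the median of each list as a line and filled points where the adjusted p was below 0.05. The globins, Alas2 and Slc4a1 lie between -1.63 and -0.85, while the lists of heme synthesis, iron supply, membrane and transcription factors center within 0.11 of 0.

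Gene by gene over the 18 libraries, the level most like that of the adult globins was that of Slc25a37, mitoferrin-1, which brings iron into mitochondria for heme synthesis. Its log2 normalized counts had a Pearson r of 0.94 and a Spearman rho of 0.95 with the mean of the 4 adult globins, as a description, since the libraries share embryos and fall into 3 tissues. Within the 6 bone libraries r was 0.85. Its mean was 47.7 normalized counts in mutant and 69.4 in control bone, a log2 difference of -0.59 (adjusted p = 0.206, limma) in the fit of 6. The next were Arl4a (r = 0.90), Tmsb4x (0.88), Parvb (0.88), Arpp19 (0.87), Gpd1l (0.87), Cxcl12 (0.86) and Sh3bgrl (0.86). Parvb and Cxcl12 had negative values within bone (-0.53 and -0.67), so their likeness rests on the differences between tissues.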

How the data were processed

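Laser-captured mandibular bone, MC and mandibular condylar cartilage of 6 embryos gave 18 libraries of amplified RNA. The authors trimmed reads with cutadapt, mapped them to mm10 with STAR and made gene counts with featureCounts 1.5.0-p1 against Ensembl 75 models, without regard to strand and without fragments that mapped or belonged to several places. The deposited counts are not normalized. Groups came from the labels, and that equal numbers within a genotype stand for 1 embryo was inferred from them. In a fit of the 6 bone libraries, p-values measure the spread between embryos. The genotype fit of 18 libraries pools that spread over the tissues and treats the libraries of an embryo as independent. P-values for tissue differences and interactions, with the embryo as a term, measure the spread left within embryos.

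The filter retained a gene if 50% or more of the libraries exceeded 1 FPKM for it, and the retained genes were normalized by TMM, transformed with voom and fitted in limma 3.58.1 (R 4.3.3), as in the paper's methods, with 1 mean per group for genotype and the embryo as a term for tissue differences and interactions. The fit of group means had 12 residual and 8.12 prior degrees of freedom, and the fit with the embryo term, which the paper's methods do not name, 8 and 8.93. P-values were adjusted by the Benjamini-Hochberg method over all genes, with a threshold of 0.05. edgeR 4.0.16, DESeq2 1.42.0, other filters, factors and weights, a replicate block and leaving out each library were alternatives. The steps were tested on simulated counts. Within-embryo differences used log2 of normalized counts plus 0.5. Globin sequences came from GENCODE M21 transcripts.

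The red cell genes and the gene lists were chosen with earlier results of these data known. Genes named were the members in every comparison, up to 3 per list that passed with the largest change, or else the 3 most abundant, the 8 genes most like the adult globins, and Fgfr2. Ahsp had no match and was not analysed here, and Fam46c, an older symbol of Tent5c, was listed beside it and had no match of its own.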

Additional observations from a re-analysis of the deposited data

How the results depend on the processing

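In bone, the number of red cell genes past the threshold was 0 in the fit of 18 libraries and moved to 2 with no filter on low genes, to 5 with sample quality weights and to 5 with the 6 bone libraries. In fits of the 6 bone libraries chosen after seeing the data, edgeR gave 4 and DESeq2 gave 6, and leaving out 1 bone library gave between 2 and 5, against 0 in each such fit of 18 libraries. The direction in bone was the same in every setting. In MC, DESeq2 gave 1 gene, Hbb-y. Between bone and MC, 5 genes passed with no filter and 6 with library totals and no TMM, against 3, and between 2 and 4 with 1 library left out. Hbb-y, not among the 3 of the main fit, passed there in 4 of 8 alternative settings, with log2 differences of 2.25 to 3.99. With the condylar cartilage, leaving out 1 library gave 5 to 6 genes against bone and 3 to 4 against MC. Over the other settings the count against MC was between 2 and 4, with the call of Hbb-bs lost in library totals without TMM (-0.716, adjusted p = 0.0540, limma).

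Equal replicate numbers of the genotypes did not deviate together in every pair (correlations from -0.21 to 0.35 over the tissues), so they were not taken as pairs. A replicate block gave 1 red cell gene in bone with 18 libraries and 6 with the 6 bone libraries, and changed no count in MC or the condylar cartilage.

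Some signs turned between settings. In the condylar cartilage the genotype difference of Hbb-bs was -0.0712 in edgeR and -0.0637 in DESeq2, and that of Hbb-bt was -0.0443 and -0.0361. With no filter the interaction of Hbb-y between bone and condylar cartilage was -0.237. With library totals and no TMM, Alas2 was higher by 0.589 in the condylar cartilage than in MC, and its interaction between bone and MC was 0.146. The causes were not tested.

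With 1 library left out, differences that did not pass ranged across 0. Between bone and MC, Hba-a2 ranged from -0.138 to 0.522 (negative without Fgfr2+/S252W bone replicate 1, Fgfr2+/S252W MC replicate 1 or Fgfr2+/+ bone replicate 1 or 2), and the interaction of Alas2 from -0.494 to 0.212. The genotype difference in MC ranged from -1.08 to 0.112 for Hba-a1, -0.863 to 0.0383 for Hba-a2 and -0.353 to 0.415 for Hbb-bt. In the condylar cartilage it ranged from -0.165 to 2.20 for Hba-a1, -0.332 to 2.00 for Hba-a2, -0.545 to 1.204 for Hbb-bs, -0.550 to 1.77 for Hbb-bt and -0.389 to 0.125 for Alas2, where the 4 globins were negative without Fgfr2+/+ replicate 1, and Hbb-bs also without Fgfr2+/S252W replicate 2. The difference of the condylar cartilage from MC ranged from -0.401 to 0.0565 for Alas2, and its interaction from -0.386 to 1.46 for Hbb-bt. Hba-a1 passed between bone and MC without Fgfr2+/S252W bone replicate 2 or Fgfr2+/+ bone replicate 3, and Hbb-bt passed between the cartilages without Fgfr2+/+ condylar replicate 3. The globin share in bone differed by -0.101 percentage points between the genotypes and by -0.184 in totals without mitochondrial genes and Gm42418.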
